A study of Mus musculus with 6 samples.

Results

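Interleukin 2 and the receptor chains of its cytokine family were followed in mouse CD4+ T cells before and after renewed stimulation of the T cell receptor. The set holds 9 of the 48440 genes in the deposited count table: the cytokine gene Il2 and the receptor chain genes Il2ra, Il2rb, Il2rg, Il4ra, Il7r, Il9r, Il15ra and Il21r. They were chosen by name and matched to Ensembl identifiers through GENCODE M21. All 9 passed the read filter, which was applied once to the 6 libraries together. The lowest counts were the 9 to 14 reads of Il9r in the stimulated libraries. Il9r passed the filter through its unstimulated libraries, with 46 to 86 reads.

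The cells were helper T lymphocytes from spleen and lymph nodes of wildtype mice, whose strain and age the sources used here do not give. All 6 libraries shared a history of 3 days of priming on plates coated with anti-CD3 and anti-CD28, antibodies that trigger the receptor and a costimulator, followed by 5 days of growth in IL2. The 3 unstimulated libraries come from cells kept at rest after that, and the 3 stimulated libraries from cells given both antibodies again for 4 hours. The unstimulated cells are thus rested effector cells that had been grown in the cytokine under study, not naive cells. The labels do not say whether IL2 was still in the medium during the last 4 hours, nor whether the replicates came from separate mice, so that p-values measure the spread between these libraries only.

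Interleukin 2 is made by T cells soon after their receptor is engaged and drives their growth. Its receptor has an alpha chain (Il2ra, CD25) that raises affinity, a beta chain (Il2rb, CD122) and the common gamma chain (Il2rg, CD132), and the beta and gamma chains carry the signal. The gamma chain is also part of the receptors for interleukins 4, 7, 9, 15 and 21, each of which adds a chain of its own, and signals pass through the Janus kinases JAK1 and JAK3 to STAT transcription factors, STAT5 above all for interleukins 2, 7 and 15.

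The libraries held 29897720 to 30252923 counted reads, of which 0.252% to 0.368% fell on the 9 genes. Values are normalised read counts in CPM, the reads of a gene per 1000000 reads of a library whose size was scaled by TMM. At this depth 3 reads make about 0.1 CPM. The T cell genes Cd3d, Cd3e, Cd3g, Cd4, Cd5 and Cd28 summed to 3323 to 3450 CPM at rest and 1391 to 1472 CPM after stimulation, and all 6 fell. Genes of granulocytes summed to at most 0.213 CPM in any library, with S100a8 and Elane at 0 reads throughout. Of 6 dendritic cell genes Siglech and Clec9a were at 0 reads too, Itgax, Zbtb46 and Xcr1 rose and 1 fell, and the sum was 1.38 to 2.32 CPM at rest and 5.83 to 7.97 CPM after stimulation. The macrophage list of 6 summed to at most 8.27 CPM. B cell genes summed to 1397 to 2854 CPM at rest and 724 to 1277 CPM after stimulation. Nearly all of that sum was Ighm, and 5 of the 6 B cell genes fell. Mitochondrial transcripts summed to 8607 to 11794 CPM at rest and 10319 to 13518 CPM after stimulation.

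The genes lie on 6 chromosomes, and 4 of them form 2 neighbouring pairs (GRCm38). Il2 (ENSMUSG00000027720) lies at chr3:37120523-37125959 on the minus strand. Il2ra (ENSMUSG00000026770, chr2:11642807-11693193, plus strand) is followed after a gap of 12096 bases by Il15ra (ENSMUSG00000023206, chr2:11705290-11734317, plus strand). Il4ra (ENSMUSG00000030748, chr7:125552120-125579474, plus strand) is followed after 23954 bases by Il21r (ENSMUSG00000030745, chr7:125603429-125633570, plus strand). Il7r (ENSMUSG00000003882, chr15:9505788-9530176, minus strand) and Il2rb (ENSMUSG00000068227, chr15:78479256-78495271, minus strand) share a chromosome but lie far apart. Il9r (ENSMUSG00000020279) is at chr11:32187541-32200279 and Il2rg (ENSMUSG00000031304) at chrX:101264378-101268255, both on the minus strand. Il2rg shares 728 of its 2387 exon bases with the readthrough model Gm20489, which had at most 1 read in any library. The sources used here do not say how reads from shared exons were counted.

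The sequence just before the start site is shown for the members that changed by more than 2-fold and whose RefSeq window (GRCm38.p6) lies before the GENCODE exons. Il7r changed by more than 2-fold too but is not printed. Its window lies inside the GENCODE gene, with 86 of its 250 bases in exons. The windows shown are those of Il2, Il2ra, Il15ra and Il9r. Each runs 5′ to 3′ on the strand of its gene and ends at the last base before the RefSeq start site, or up to 5 bases short of it where GENCODE places an exon. Capitals mark matches, on either strand, to the NFAT core GGAAA, the AP-1 motif TGANTCA, the NF-kB motif (GGG, any 5 bases, CC), the STAT5 motif TTCNNNGAA or the FOXO motif GTAAACA, and overlapping matches run together. The windows are chr3:37125960-37126204 for Il2, chr2:11642542-11642791 for Il2ra, chr2:11705043-11705289 for Il15ra and chr11:32200280-32200529 for Il9r.
Il2: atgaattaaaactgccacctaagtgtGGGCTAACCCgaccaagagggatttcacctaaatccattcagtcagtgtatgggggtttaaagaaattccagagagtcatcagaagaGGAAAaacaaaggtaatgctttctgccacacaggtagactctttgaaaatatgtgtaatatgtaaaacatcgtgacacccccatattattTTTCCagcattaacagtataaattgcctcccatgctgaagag
Il2ra: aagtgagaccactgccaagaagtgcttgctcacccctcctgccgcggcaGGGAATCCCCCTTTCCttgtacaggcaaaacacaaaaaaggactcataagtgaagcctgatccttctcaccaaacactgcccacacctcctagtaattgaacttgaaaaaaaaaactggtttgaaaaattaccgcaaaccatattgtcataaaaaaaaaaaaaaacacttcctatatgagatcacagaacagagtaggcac
Il15ra: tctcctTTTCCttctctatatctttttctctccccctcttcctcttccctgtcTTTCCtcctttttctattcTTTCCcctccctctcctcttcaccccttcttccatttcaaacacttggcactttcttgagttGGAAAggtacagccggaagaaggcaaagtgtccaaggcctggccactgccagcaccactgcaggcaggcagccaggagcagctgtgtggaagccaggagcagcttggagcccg
Il9r: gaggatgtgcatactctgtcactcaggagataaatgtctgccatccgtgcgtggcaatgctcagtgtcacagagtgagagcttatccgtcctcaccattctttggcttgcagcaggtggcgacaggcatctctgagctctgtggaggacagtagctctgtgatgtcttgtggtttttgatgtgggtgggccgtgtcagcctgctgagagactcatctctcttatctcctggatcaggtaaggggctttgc

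Positions below give the first base of a match, counted back from the RefSeq start site. The Il2 window held the NFAT core at -137 and -47 and an NF-kB match at -224. The Il2ra window held overlapping NF-kB matches at -201 and -200 and the NFAT core at -190, next to each other. Il15ra held 4 NFAT cores, at -244, -197, -178 and -116, and the window of its other annotated start an AP-1 match at -30 and an NF-kB match at -102. The Il9r window held no match to any of the 5 motifs. Of the members whose windows are not printed, Il7r had a STAT5 match at -142 and an NFAT core at -121, Il21r a FOXO match at -38 and an NF-kB match at -231, and Il2rg and Il4ra an NFAT core each, at -23 and -221. No RefSeq window was matched to Il2rb, so it was not searched. Among 32851 windows of 250 bases before RefSeq starts, 55.6% held the NFAT core, 45.8% the NF-kB motif, 7.02% the STAT5 motif, 6.75% the AP-1 motif and 3.17% the FOXO motif. A match describes letters and shows neither binding nor use.

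Restimulation moved 7 of the 9 genes past an adjusted p of 0.05 in the quasi-likelihood test of edgeR. Il2, Il2ra, Il15ra, Il2rg and Il2rb rose, Il7r and Il9r fell, and Il4ra and Il21r did not pass. Over all 13314 tested genes 77.5% passed, 38.4% upward and 39.1% downward, so 7 of 9 is close to the background. Against a change of 2-fold (edgeR's glmTreat), Il2, Il2ra and Il15ra rose and Il7r and Il9r fell, 5 of 9, where 35.6% of all genes passed (17.4% rose and 18.2% fell). For 7 of the 9 the libraries of the groups did not overlap, as for 79.8% of all tested genes. The median log2 fold change of the 9 was 0.54, and that of all tested genes -0.043. With library size alone as the scaling, the median of all genes moved by -0.14 and the members divided into 4 that rose and 4 that fell. CPM values describe a gene's part of a library, and in such bulk samples fewer cells of a type and less RNA per cell cannot be told apart.

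**Figure D1:**
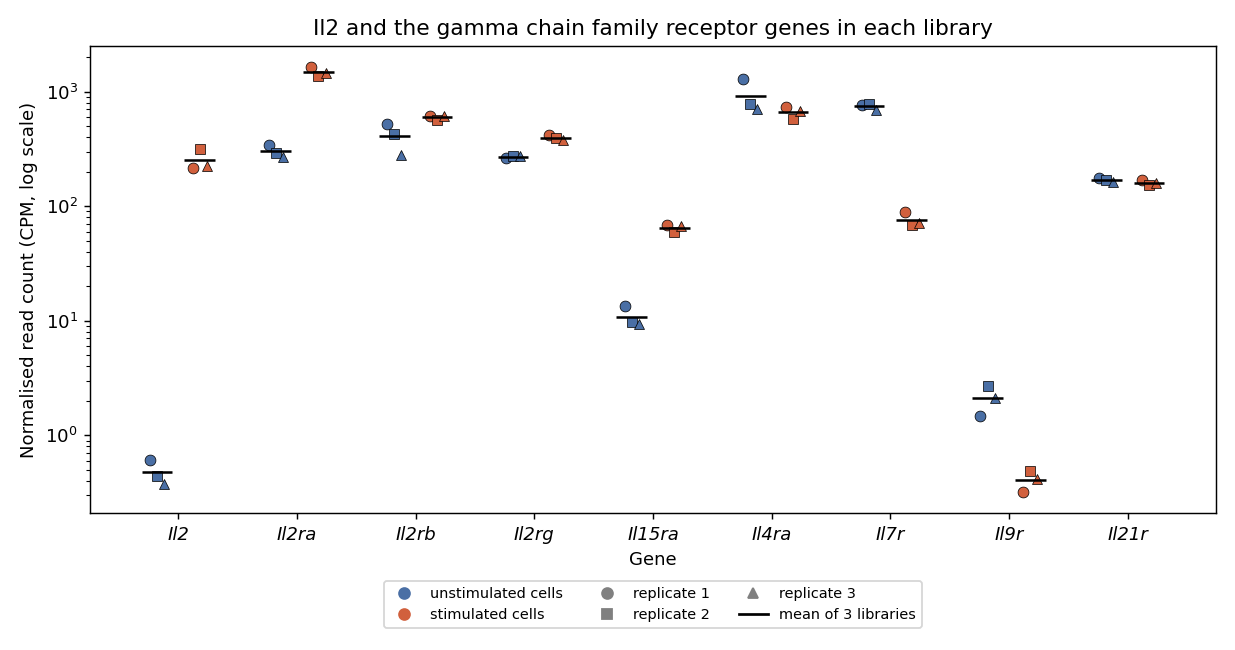
Normalised read counts (CPM, log scale) of Il2 and the 8 receptor chain genes in the 3 unstimulated and 3 stimulated libraries; points are libraries, shapes are replicate numbers and lines are means of 3. The groups lie apart for 7 genes and overlap for Il4ra and Il21r.

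The cytokine itself was nearly silent at rest. Il2 stood at 0.605, 0.443 and 0.377 CPM in unstimulated replicates 1, 2 and 3, on 19, 14 and 12 reads, and at 216, 313 and 224 CPM in the stimulated libraries. The highest resting library was far below the lowest stimulated library. The mean went from 0.475 ± 0.117 to 251 ± 54.0 CPM (SD, n = 3), a ratio of 529, with a fitted log2 fold change (log2 change, stimulated over unstimulated) of 9.04 (SE 0.24, adjusted p by edgeR = 1.1e-08). Only 6 of the 13314 tested genes had a larger fitted rise. Stimulated replicate 2 held the most Il2, whereas the receptor gene Il2ra was lowest in that library.

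The receptor for interleukin 2 changed unevenly across its chains. Il2ra, the alpha chain that marks activated and regulatory T cells, was already present at 343, 292 and 268 CPM at rest and stood at 1633, 1382 and 1447 CPM after stimulation. Every stimulated library was above every resting library, and the mean rose 4.94-fold, from 301 ± 37.9 to 1487 ± 131 CPM (log2 change 2.30, SE 0.10, adjusted p by edgeR = 9.8e-08). In the same libraries Foxp3, the defining gene of regulatory T cells, went from 8.50 to 11.8 CPM. The list of 5 regulatory T cell genes summed to 158 to 165 CPM at rest and 442 to 450 CPM after stimulation (4 rose, 1 fell). Most of that sum was Tnfrsf18, which activated T cells also express, and the part of these cells in the Il2ra result was not tested.

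The signalling chains moved far less. Il2rg, which every receptor of the family needs, stood at 262, 272 and 274 CPM at rest and at 414, 392 and 381 CPM after stimulation. The resting libraries differed little and all lay below the stimulated ones, a rise of 1.47-fold (log2 change 0.56, SE 0.061, adjusted p by edgeR = 2.9e-05). Il2rb, the beta chain shared by the receptors for interleukins 2 and 15, stood at 525, 423 and 279 CPM at rest and 609, 566 and 612 CPM after stimulation. Its resting libraries were widely spread, and unstimulated replicate 1 came close to the stimulated ones. The mean rise was 1.45-fold (log2 change 0.54, SE 0.21, adjusted p by edgeR = 0.0476). It no longer passed without stimulated replicate 1 (adjusted p = 0.12), 2 (0.0726) or 3 (0.103), without unstimulated replicate 2 (0.0859), without both libraries numbered 2 (0.119), with library size alone (0.103) or with no filter (0.185). Without unstimulated replicate 1 the log2 fold change of Il2rb was 0.76, and without unstimulated replicate 3 it was 0.32.

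Il2rb is also a gene of NK cells and cytotoxic T cells. Of the 5 NK cell genes only Eomes, a transcription factor that CD8+ T cells express too, had enough reads to be tested, and it rose (adjusted p by edgeR = 0.0215). Ncr1, Klrb1c, Klra8 and Klre1 were at or below 0.0632 CPM in the mean of either group. The list summed to 19.7, 2.97 and 1.89 CPM in unstimulated replicates 1, 2 and 3 and to 58.2 to 112 CPM after stimulation. Nearly all of that sum was Eomes. Il2rb had the same order over the resting libraries, but so did Il2, Il2ra, Il4ra, Il15ra and Il21r. Cd8a and Cd8b1 summed to 20.9 to 24.8 CPM at rest and 20.7 to 25.8 CPM after stimulation, while Cd8a alone rose from 3.83 to 8.22 CPM and Cd8b1 fell from 18.6 to 14.7 CPM. Their part in the Il2rb result was not tested.

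Il15ra, the high-affinity chain for interleukin 15 that can present the cytokine to neighbouring cells, rose as its neighbour Il2ra did. It stood at 13.4, 9.80 and 9.30 CPM at rest and at 68.6, 59.3 and 66.6 CPM after stimulation, with no overlap. The rise was 5.99-fold (log2 change 2.58, SE 0.14, adjusted p by edgeR = 3.1e-07). The fitted rises of Il15ra and Il2ra ranked 723rd and 920th of 13314. Both genes were highest in replicate 1 and lowest in replicate 2 among the stimulated libraries, but so were Il4ra, Il7r and Il21r.

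Il7r fell furthest of the 9. It encodes the chain that binds interleukin 7, the survival cytokine of resting and memory T cells. Its level was 759.6, 777 and 689 CPM in the unstimulated libraries and 89.8, 68.6 and 70.9 CPM in the stimulated ones. The groups lay far apart, and the mean fell 9.71-fold, from 742 ± 46.6 to 76.4 ± 11.7 CPM (log2 change -3.28, SE 0.12, adjusted p by edgeR = 2.2e-08). Of all tested genes, 334 had a deeper fitted fall. Il9r, the chain for interleukin 9, was scarce in both groups. It had 46, 86 and 68 reads at rest (1.46, 2.72 and 2.14 CPM) and 9, 14 and 12 after stimulation (0.319, 0.492 and 0.413 CPM). Its groups did not overlap, and it fell 5.16-fold (log2 change -2.36, SE 0.33, adjusted p by edgeR = 0.00014).

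The chains for interleukins 4 and 21 did not pass the test. Il4ra, which also binds interleukin 13 when paired with Il13ra1, stood at 1279, 786 and 698 CPM at rest and at 734, 579 and 681 CPM after stimulation. Unstimulated replicate 1 was well above all other libraries, and the groups overlapped. The log2 fold change was -0.47 (SE 0.23; 95% interval -1.03 to 0.08, adjusted p by edgeR = 0.103). It was -0.16 without unstimulated replicate 1 (adjusted p = 0.19) and -0.65 without unstimulated replicate 3, where it passed (adjusted p = 0.0497). It passed too with library size alone (-0.61, adjusted p = 0.0415) and without both libraries numbered 1 (-0.23, adjusted p = 0.0378). B cells also express Il4ra. The summed B cell genes, at 1397, 1894 and 2854 CPM in unstimulated replicates 1, 2 and 3, ran in the opposite order to Il4ra. Over these libraries Il2, Il2ra, Il2rb, Il15ra and Il21r had the same order as Il4ra. Il21r stood at 175, 168 and 161 CPM at rest and 169, 152 and 159 CPM after stimulation, with a log2 fold change of -0.071 (SE 0.069; 95% interval -0.23 to 0.09, adjusted p by edgeR = 0.366). Its groups overlapped, though with library size alone it passed as a fall (-0.21, adjusted p = 0.0147).

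**Figure D2:**
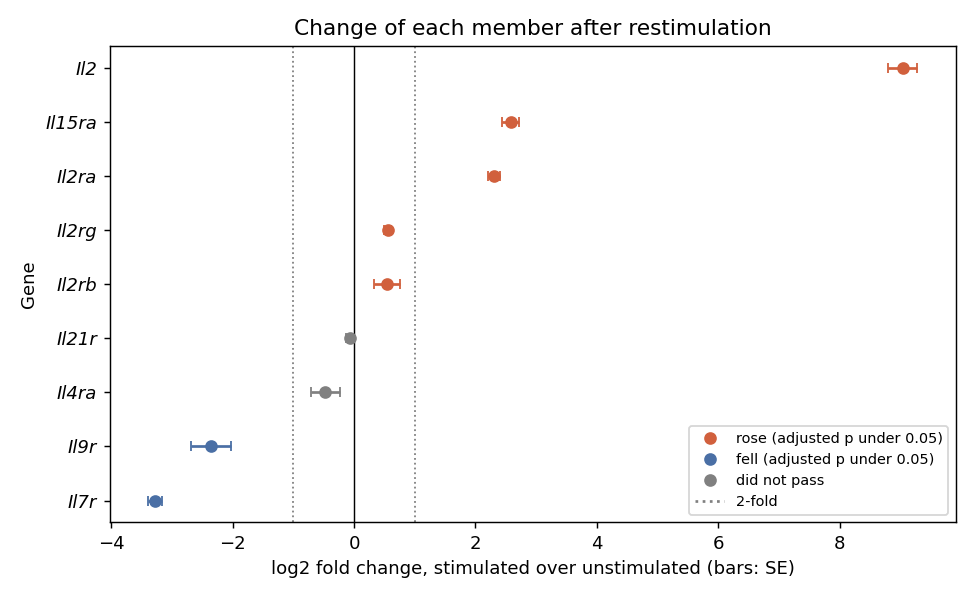
Log2 fold change of stimulated over unstimulated cells for each of the 9 genes, with bars for the SE and dotted lines at 2-fold. Il2 stands apart at 9.04, Il15ra and Il2ra lie above 2-fold, Il7r and Il9r below it, and the other 4 within it.

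Levels of different genes were set side by side as CPM per kilobase of merged exons. At rest the order from the top was Il7r (159, from 148 to 167 over libraries), Il4ra (154 ± 52.2), Il2rg (113 ± 2.57), Il2rb (95.5 ± 28.8), Il2ra (52.7 ± 6.63), Il21r (50.5 ± 2.08), Il15ra (2.44 ± 0.503), Il9r (0.426 ± 0.127) and Il2 (0.415 ± 0.102; SD, n = 3 for each of these 8). In that order Il7r and Il4ra overlapped over their libraries, as did Il2rg and Il2rb, Il2ra and Il21r, and Il9r and Il2. After stimulation Il2ra led with 260.4 ± 22.9 CPM per kilobase and overlapped with Il2 (219 ± 47.2). Il2rg (166 ± 7.06), Il2rb (139 ± 6.03), Il4ra (111 ± 13.1) and Il21r (48.1 ± 2.57) followed without overlap. Il7r (16.4, from 14.7 to 19.3) had dropped to seventh and overlapped with Il15ra (14.6 ± 1.10), and Il9r came last (0.0825 ± 0.0175). By merged exons Il2 thus went from the bottom of the order to the second place, and Il7r from first to seventh. These places depend on the length used. The longest transcript of Il2rg has 1670 bases (2387 merged) and that of Il15ra 2315 (4446 merged). Per longest transcript, the stimulated mean of Il2rg lies above that of Il2, and that of Il15ra above that of Il7r.

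**Figure D3:**
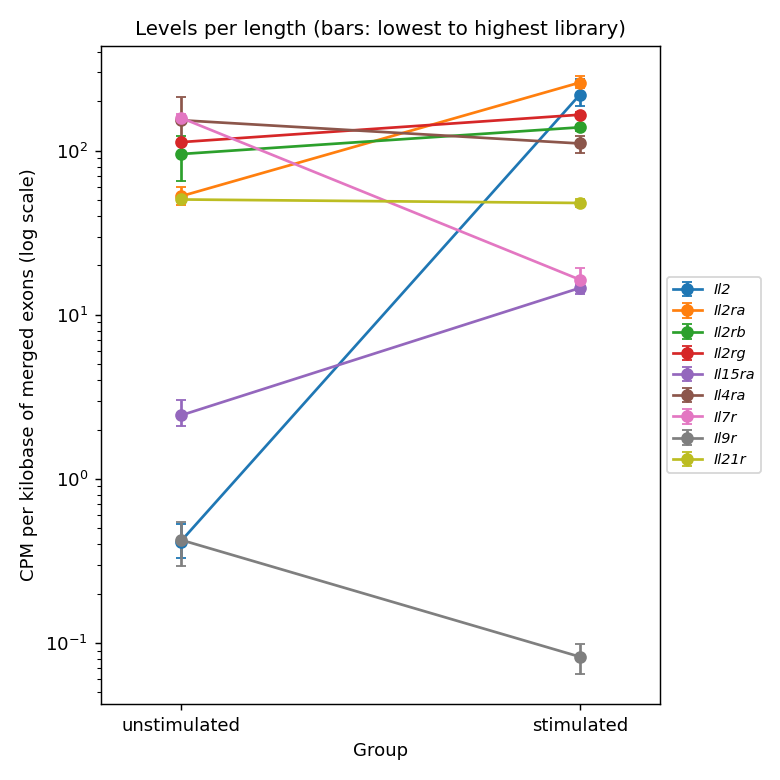
Mean CPM per kilobase of merged exons (log scale) in unstimulated and stimulated cells, with bars from the lowest to the highest of 3 libraries and a line per gene. The lines of Il2 (rising) and Il7r (falling) cross most others, while Il2rg and Il2rb rise by less than 2-fold and Il21r goes from 50.5 to 48.1.

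The make-up of the receptor chain transcripts does not depend on the scaling between libraries. Among the 8 chains, Il2ra held 8.28%, 8.33% and 8.67% of the summed CPM per kilobase in the resting libraries and 35.3%, 34.1% and 33.9% in the stimulated ones. Il7r held 22.5%, 27.1% and 27.3% at rest and 2.38%, 2.07% and 2.03% after stimulation. The groups were far apart for both chains. Il4ra went from 24.1% ± 4.64 to 14.6% ± 0.880, Il2rg from 18.3% ± 3.00 to 22.0% ± 1.05 and Il2rb from 15.0% ± 2.61 to 18.4% ± 0.800 (SD, n = 3). Il15ra went from 0.387% to 1.93%, or, per length of the longest transcript, rose by 2.34 percentage points instead of 1.54. In an exact two-sided permutation test over libraries each of the 8 shares gave p = 0.1, the smallest that 3 against 3 allows, and 0.1 adjusted over the 8, so none can pass.

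Within a library, the alpha chain went from the least to the most abundant transcript of the interleukin 2 receptor. The ratio of Il2ra to Il2rb per kilobase was 0.490, 0.519 and 0.721 at rest and 2.01, 1.83 and 1.77 after stimulation. The ratio of Il2ra to Il2rg was 0.546, 0.449 and 0.410 at rest and 1.65, 1.47 and 1.59 after stimulation. Both ratios were below 1 in every resting library and above 1 in every stimulated library (log2 differences 1.72 and 1.75; exact permutation p = 0.1 each, the smallest possible). The ratio of Il2rb to Il2rg, computed in addition, was 0.850 ± 0.273 and 0.839 ± 0.0495 (exact permutation p = 0.9). Reads on the exon bases that Il2rg shares with Gm20489 may have been left uncounted. In that case the levels and shares of Il2rg above are too low and the ratios to it too high.

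**Figure D4:**
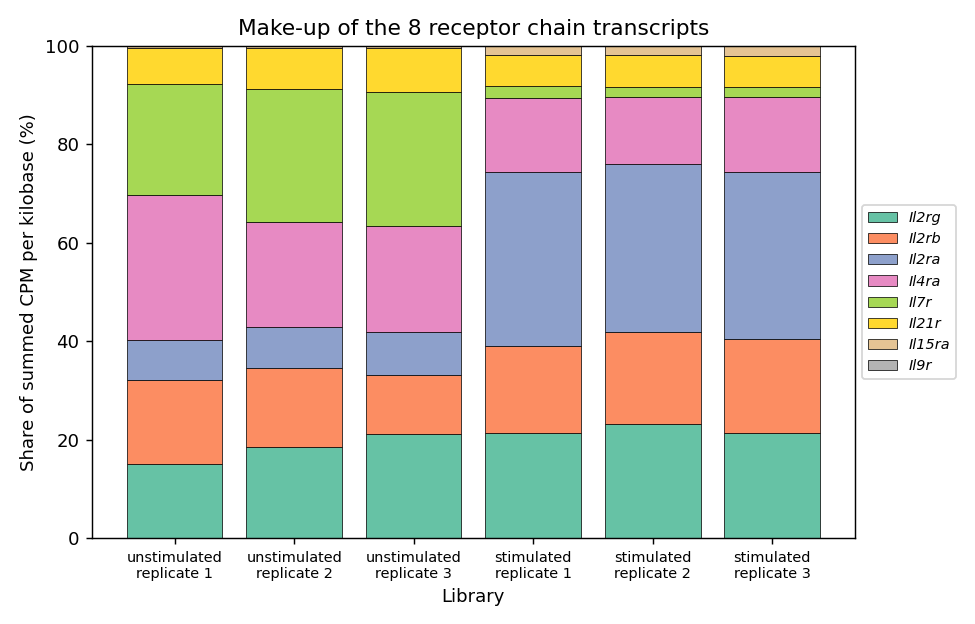
Share (%) of each chain in the summed CPM per kilobase of the 8 receptor chain genes, a stacked bar per library. Il2ra widens from about 8.43% to 34.5% and Il7r shrinks from 25.6% to 2.16% between the unstimulated and stimulated bars.

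Other genes of the pathway were taken from 8 lists, whose counts stand against 77.5% of all tested genes called, 38.4% as rising and 39.1% as falling. Of the 5 other cytokines that use the gamma chain, 4 could be tested and all 4 rose, with a median of 5.12 (all tested genes, -0.043). Il9 and Il15 passed the read filter only through their stimulated libraries, so their rise was largely set by their being tested. Il4, the type 2 helper cytokine, went from 7.01 ± 2.46 to 395 ± 97.6 CPM (log2 change 5.81). Il21, which helps B cells, went from 1.54 ± 1.203 to 33.1 ± 4.77 CPM, a ratio of 21.5 that was 38.9 without unstimulated replicate 1. Il9 had 2 reads at rest and 241 after stimulation, a ratio of 133 (95% counting interval 36.5 to 1108). Both resting reads lay in unstimulated replicate 1, without which Il9 was at least 59.5-fold higher after stimulation (floor of 3 counts over the other resting libraries). Leaving out unstimulated replicate 2 gave a ratio of 88.9 for Il9, and leaving out unstimulated replicate 3 gave 88.7. Il15 stayed low, from 0.190 ± 0.0641 to 0.526 ± 0.128 CPM (adjusted p by edgeR = 0.0095), and it no longer passed when both replicates numbered 2 were left out (adjusted p = 0.0568). Il7, made mainly by stromal cells, had too few reads to test. The rise of Il9 ran against the fall of its receptor chain Il9r in the same libraries.

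Both partner chains rose. Crlf2, which pairs with Il7r in the receptor for the cytokine TSLP, went from 58.2 ± 2.77 to 86.2 ± 8.64 CPM while Il7r fell (log2 change 0.57, SE 0.085). Il13ra1, which pairs with Il4ra, stayed below 1 CPM in every library. Only 5 of its reads came from resting cells, and it went from 0.0527 to 0.594 CPM, 11.3-fold, or 18.8-fold without unstimulated replicate 2. It passed the read filter only through its stimulated libraries, and with a filter of 1 CPM it was not tested.

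Of the 7 Janus kinases and STAT factors 5 rose, 1 fell and 1 did not pass, with a median of 0.54. Stat5a rose most, from 78.4, 60.9 and 50.7 CPM to 1025, 991 and 934 CPM (log2 change 3.96, SE 0.16, adjusted p by edgeR = 1.3e-07). Its close relative Stat5b rose by 0.68 (from 252 ± 36.9 to 405 ± 24.5 CPM). Jak1, the kinase bound to the cytokine-specific chains, fell from 712 ± 64.7 to 225 ± 12.9 CPM (log2 change -1.66). Jak3, the kinase bound to the gamma chain, was 217 ± 31.1 and 253 ± 13.03 CPM (adjusted p by edgeR = 0.0717) and passed without unstimulated replicate 1 (adjusted p = 0.0044) and without both libraries numbered 1 (0.0048). Stat3 rose by 0.54, and Stat6, the factor of interleukin 4, by 0.26. Stat6 no longer passed without the libraries numbered 2 (adjusted p = 0.0761) or with library size alone (0.123).

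Of 10 adaptors and kinases further down 2 rose, 5 fell and 3 did not pass, with a median of -0.43. The adaptor Shc1 fell from 119.8 ± 3.85 to 58.4 ± 0.862 CPM. Pik3cd, the leukocyte catalytic subunit of PI3 kinase, fell from 625 ± 31.6 to 285 ± 15.1 CPM, and its regulatory subunit Pik3r1 from 155 ± 9.12 to 31.5 ± 2.36 CPM. The phosphatase Ptpn11 and the exchange factor Sos1 rose by 0.65 and 0.62.

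Among 9 inhibitors 6 rose and 2 fell, with a median of 0.36. Cish and Socs1, feedback inhibitors that cytokine signals induce, rose most. Cish stood at 102, 56.5 and 55.9 CPM at rest and at 652, 641 and 679 CPM after stimulation (log2 change 3.20, SE 0.25, adjusted p by edgeR = 1.9e-05). Socs1 went from 48.0 ± 9.14 to 335 ± 26.3 CPM. The adaptor Sh2b3 rose by 0.92, while Socs3 and the ubiquitin ligase Rnf41 fell by 0.48 and 0.74.

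Of 15 known STAT5 targets 12 rose and 3 fell, where 38.4% of all tested genes rose and 39.1% fell, and their median was 1.41. The 3 with the smallest p that rose were Lta (lymphotoxin, from 14.7 ± 0.435 to 364 ± 8.82 CPM), Tnfrsf9 (4-1BB, from 6.56 ± 0.903 to 316 ± 18.4 CPM) and Tbx21 (T-bet, from 52.6 ± 6.27 to 299 ± 20.3 CPM). All 3 are also known to respond to the T cell receptor itself. The cyclin genes of the list parted: Ccnd2 went from 273 ± 57.4 to 2131 ± 290.2 CPM and Ccnd3 from 209 ± 7.89 to 56.1 ± 4.48 CPM. The survival gene Bcl2 fell by 0.39 and the repressor Prdm1, which is also known to repress Il2, by 0.52. Bcl2 no longer passed without the libraries numbered 3 (adjusted p by edgeR = 0.0525). The call of Prdm1 was lost on leaving out any library but stimulated replicate 1 (adjusted p from 0.0512 to 0.0923). Among the genes that rose, Bcl6 and Socs2 lost their calls in several alternatives, such as library size alone (adjusted p by edgeR = 0.0896 and 0.0951). The list does not part genes that STAT5 induces from genes that it represses.

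**Figure D5:**
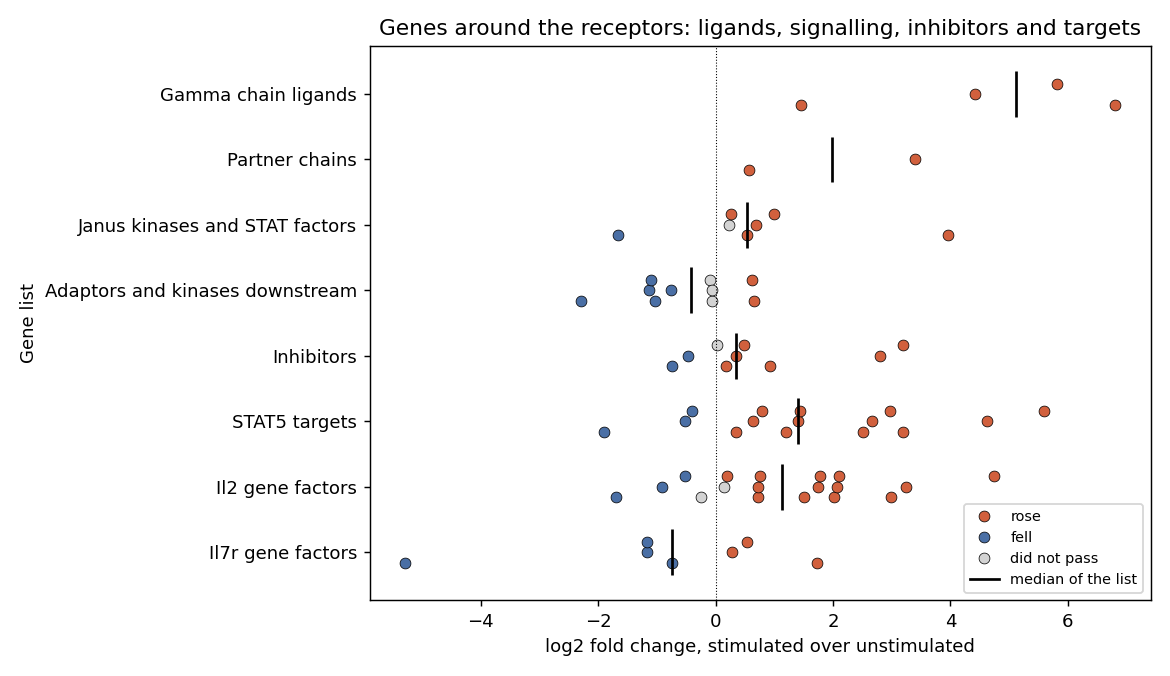
Log2 fold change of stimulated over unstimulated cells for each tested gene of the 8 lists, a point per gene coloured by its call, with a bar at each list's median. All tested ligands and partner chains lie to the right of 0, and the adaptors and the Il7r gene factors have medians to the left of 0. Il9, Il15 and Il13ra1 passed the read filter only through the stimulated libraries.

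Factors that bind or repress the Il2 gene rose in 13 of 18 cases and fell in 3, against 38.4% and 39.1% of all tested genes, with a median of 1.14. The 3 with the smallest p that rose were Nfkb1 (from 369 ± 48.9 to 1586 ± 64.4 CPM), an NF-kB subunit, and the AP-1 genes Jun (from 13.1 ± 2.38 to 104 ± 12.8 CPM) and Junb (from 107 ± 14.5 to 446 ± 43.6 CPM). Nfatc3 fell from 357 ± 48.1 to 109 ± 2.73 CPM, and Ikzf1 (Ikaros), known as a repressor of Il2, from 717 ± 30.02 to 379 ± 15.2 CPM. The other gene that fell was Prdm1, given above. Crem and Zeb1, also known as repressors of Il2, were among the genes that rose, by 0.72 and 0.19. The call of Zeb1 was lost in several alternatives, among them library size alone (adjusted p by edgeR = 0.505). NFAT, AP-1 and NF-kB are among the families whose motifs were searched in the windows printed above, and no binding was measured.

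Of 7 factors linked to transcription of Il7r, 4 fell and 3 rose, with a median of -0.74. Klf2 fell most, from 346, 325 and 316 CPM to 8.58, 8.004 and 8.72 CPM (log2 change -5.29, SE 0.082, adjusted p by edgeR = 2.6e-09). Foxo1, an activator of Il7r, fell from 224 ± 9.02 to 99.7 ± 11.9 CPM, Ets1 from 1479 ± 112 to 661 ± 39.7 CPM and Runx1 from 93.1 ± 4.85 to 55.8 ± 5.60 CPM. Gfi1, a repressor of Il7r, rose from 89.3 ± 3.34 to 296 ± 10.7 CPM, and Gabpa, an activator of it, from 87.5 ± 6.37 to 126 ± 5.24 CPM. Foxp1 rose by 0.28, a call lost with library size alone (adjusted p = 0.13).

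The neighbourhood of each gene was read within 200 kb. Around Il2, 5 other genes were tested, of which 3 rose and 1 fell. Of all tested genes 77.5% passed, 38.4% upward and 39.1% downward, so such a count is close to the background. Il21, at a gap of 96799 bases, was the neighbour with the largest rise (4.42), and 4932438A13Rik, on the other side of Il2, fell by 0.90. Around Il2ra, besides Il15ra, the RNA-binding gene Rbm17 and the glycolysis regulator Pfkfb3 rose by 0.90 and 0.94, and Ankrd16 and the helicase gene Fbh1 fell by 0.55 and 1.70. Fbh1 lies 8255 bases past Il15ra, so the rise of the pair did not extend to every gene beside it. Gm37881, an unverified transcript inside Il2ra on the same strand, rose by 2.39. It shares no exon base with Il2ra, but its reads and those of unspliced Il2ra transcripts cannot be told apart. Around Il7r only Capsl and Spef2 could be tested. Capsl did not pass (adjusted p by edgeR = 0.5), and Spef2 fell by 1.95. Beside Il2rg, Foxo4 at a gap of 3504 bases fell by 2.08 while Il2rg rose. Of the 9 genes tested around Il2rg 2 rose and 5 fell, and of the 7 around Il2rb 1 rose and 6 fell. For Il9r 3 of 7 rose and 3 fell, and for Il4ra and for Il21r 1 of 5 rose and 2 fell. These counts stand against the same shares of all tested genes.

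The genes whose profile was most like that of a member were sought among 10434 protein-coding genes, by the Euclidean distance between centred log2(CPM + 0.5) values over the 6 libraries. Closest to Il2 were Lad1 (distance 0.41; from 0.707 ± 0.182 to 273 ± 25.2 CPM), Il13 (1.15; from 0.962 ± 0.876 to 255 ± 46.0 CPM) and Ccl4 (1.15; from 0.401 ± 0.0684 to 128 ± 24.8 CPM). The ratio of Il13 was 265, and 558 without unstimulated replicate 1. Closest to Il2ra were Nlgn2 (0.16), Gga2 (0.17) and Nfkbia (0.17), which encodes an inhibitor of NF-kB and went from 90.7 ± 6.63 to 441 ± 11.3 CPM. Closest to Il7r were Card6 (0.095; from 116 to 12.1 CPM) and Capn3 (0.19). The distances rest on 6 libraries in 2 groups and describe size of change as much as shape.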

How the data were processed

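RNA sequencing of 6 libraries was used, 3 unstimulated and 3 stimulated. The authors deposited raw read counts, 1 value for each of 48440 Ensembl genes in each library. The submitters' processing notes list STAR 2.5.2a, HTSeq and DESeq2 and the build GRCm38, with no role stated. The annotation release and strand setting used are not given in those sources, so reads of overlapping or antisense genes cannot be told apart.

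Groups and replicate numbers came from the labels, which give no batch. edgeR 4.0.16 (R 4.3.3) was run on all genes with TMM scaling, filterByExpr (13314 genes kept), robust dispersions and the two-sided quasi-likelihood test on group alone, adjusted by Benjamini-Hochberg, at a threshold of 0.05; glmTreat tested changes beyond a log2 size of 1. SEs came from the F statistic. No pair of replicates agreed within counting noise (dispersion index 9.41 to 37.6, where noise alone gives about 1). Counting intervals and floors cover counting error only.

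The members, gene lists and rules were chosen with earlier results of these data known. Lists of 8 or fewer tested genes are named whole, longer ones by the 3 smallest p in each direction. Ccnd2, Crem, Zeb1, Bcl6 and Socs2 were named in addition, as were the genes within 200 kb of members, after values were seen. A few genes named by these rules are not reported here. Symbols, coordinates and exon lengths came from GENCODE M21 (48058 identifiers matched, 382 without a name). Promoters came from RefSeq (GRCm38.p6) and were matched for 8 of 9 members, all but Il2rb. Protein sequences were not used here.

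Alternatives were RLE scaling, library size alone, library sizes without the 20 most abundant genes, DESeq2 1.42.0 and limma-voom (limma 3.58.1) in place of edgeR, no filter on low counts or one of 1 CPM in 3 libraries, the replicate block, leaving out libraries or replicate numbers, an adjusted p of 0.01, and longest transcripts for lengths. The fit was checked on simulated data in which 200 of 13314 genes changed. Far more genes were called in the real libraries, so that check does not cover changes this widespread. Permutation tests used scipy 1.17.1 under Python 3.11.15.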

Additional observations from a re-analysis of the deposited data

How the results depend on the processing

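Il2, Il2ra, Il15ra, Il2rg, Il7r and Il9r kept their direction and their call under all 17 alternative fits, with log2 fold changes of 8.80 to 9.35, 2.16 to 2.41, 2.44 to 2.77, 0.41 to 0.60, -3.42 to -3.17 and -2.56 to -2.14. Il2rb kept its direction. It no longer passed with the replicate block (0.59), no filter (0.54) or library size alone (0.40), and its values ran from 0.31 to 0.76 on leaving out libraries or replicate numbers. Il4ra passed with library size alone (-0.61) and ran from -0.65 to -0.16 on leaving out libraries or replicate numbers. Il21r passed only with library size alone (-0.21). With that scaling 4 members fell, against 2. The cause of these shifts was not tested, except that library size alone moves every gene by about -0.14. With a filter of 1 CPM 1 partner chain rose, since Il13ra1 was no longer tested, and among the STAT5 targets 1 to 3 fell on leaving out libraries or replicate numbers. The share of Il15ra rose by 2.34 points per length of the longest transcript, since its 18 annotated transcripts merge to 4446 bases and the longest has 2315. The counts over all genes stayed within 1.5 times of the values given.

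Same-numbered libraries deviated together for replicates 1 and 3 (correlations 0.36 and 0.38 across genes) but hardly for replicate 2 (0.084), so the numbers were not taken to pair the samples, although every library correlated best with its own number. With the replicate block 5326 genes rose and 5516 fell, against 5113 and 5207, and 4 members rose and 2 fell. The block ended the calls of Il2rb (adjusted p = 0.0918) and Bcl6 (0.151), and Jak3 (log2 fold change 0.23, adjusted p = 0.0176) and Pou2f1 (-0.23, 0.0184) passed with it but not in the same fit without it. The precision of Il9r and of resting Il2 is limited by their 35 and 45 reads.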
